A study of Mus musculus with 5 samples.

Results

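The transcription factors Hnf4a, Hnf4g, Nr1h4, Ppara, Esrrb, Esrrg, Tfcp2l1, Pou3f3 and Grhl2 were followed across mouse kidneys and kidney bud transplants. They were taken by gene symbol from the arrays, and are 9 of 24563 named genes, with 15 probes between them. Each had signal well above background somewhere, 7 of them on all 5 arrays. RNA came from C57BL/6 tissue in 5 groups of 1 array each: tissue recovered 2 weeks after a kidney bud had been transplanted, tissue recovered 4 weeks after, and kidneys taken at embryonic day E13.5, on the day of birth (P0) and at 8 weeks of age. Total RNA was labelled with Cy3 and hybridised to one-colour Agilent arrays, to profile genes linked to development. What the buds were made of, where they were placed and how many animals gave each RNA was not stated in the descriptions used here. With 1 array in each group there is nothing to test a difference against, so each value describes a single array and no p-value is given.

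The tubule of a nephron is divided into segments, and its cells take on their transport and metabolic functions late, around and after birth. Hnf4a and Hnf4g are paralogous nuclear receptors of the proximal tubule, Nr1h4 is the bile acid receptor FXR, and Ppara is a receptor for fatty acids that controls genes of fatty acid oxidation. Esrrb and Esrrg are orphan receptors related to the estrogen receptors, and Esrrg is known for its control of mitochondrial genes. Pou3f3 (Brn1) is a POU-domain factor that mice need to form the loop of Henle. Tfcp2l1 and Grhl2 are grainyhead-related factors of the distal tubule and collecting duct, where Tfcp2l1 patterns the cell types of the duct and Grhl2 maintains the epithelial barrier.

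The sequences of the 3 factors with the widest differences between arrays are shown first, because the results turn on them. For each start site RefSeq lists on GRCm38.p6, the 250 bases before it are printed 5′ to 3′ on the gene's strand, and capitals mark matches to a motif. Hnf4a has 2 start sites on the plus strand of chromosome 2, at chr2:163506607-163506856 and chr2:163546905-163547154. The sequence of Nr1h4 is on the minus strand at chr10:89506659-89506908, and that of Ppara on the plus strand at chr15:85735526-85735775. In RefSeq, Hnf4g lies on chromosome 3, Esrrb on 12, Grhl2 on 15, and Esrrg, Tfcp2l1 and Pou3f3 on 1.
Hnf4a start site 1: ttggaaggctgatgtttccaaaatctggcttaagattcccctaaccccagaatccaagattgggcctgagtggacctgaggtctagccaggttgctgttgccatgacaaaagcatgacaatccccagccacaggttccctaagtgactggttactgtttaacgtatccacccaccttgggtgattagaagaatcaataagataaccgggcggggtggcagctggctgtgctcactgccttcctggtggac
Hnf4a start site 2: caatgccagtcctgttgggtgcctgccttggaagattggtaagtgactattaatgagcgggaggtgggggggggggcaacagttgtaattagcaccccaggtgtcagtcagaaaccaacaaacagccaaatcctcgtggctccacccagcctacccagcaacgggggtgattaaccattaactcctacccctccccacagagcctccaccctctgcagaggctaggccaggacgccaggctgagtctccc
Nr1h4: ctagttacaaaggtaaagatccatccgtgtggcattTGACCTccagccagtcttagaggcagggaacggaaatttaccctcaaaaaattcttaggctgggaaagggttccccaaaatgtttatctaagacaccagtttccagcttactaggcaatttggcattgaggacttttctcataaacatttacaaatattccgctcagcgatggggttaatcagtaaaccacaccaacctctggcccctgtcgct
Ppara: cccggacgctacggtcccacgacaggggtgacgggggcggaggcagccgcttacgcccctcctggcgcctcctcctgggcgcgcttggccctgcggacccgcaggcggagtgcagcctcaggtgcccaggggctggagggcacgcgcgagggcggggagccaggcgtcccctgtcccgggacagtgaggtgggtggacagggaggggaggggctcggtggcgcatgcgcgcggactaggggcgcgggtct
Both strands were searched for 5 motifs: the nuclear receptor core hexamer AGGTCA, the estrogen-related receptor element TCAAGGTCA that contains it, the HNF4 motif CAAAGTCCA, the grainyhead motif AACCGGTT and the POU octamer ATGCAAAT. Nr1h4 carried the nuclear receptor hexamer as TGACCT at position -214 from the start, and neither Hnf4a sequence nor that of Ppara matched any of the motifs. Among 12 start sites of the 7 factors in the RefSeq promoter table, 1 held the nuclear receptor hexamer, as did 14.0% of 32851 promoters of the same length. The other motifs matched 0 of the 12, and 0.387% (estrogen-related receptor), 0.384% (HNF4), 0.116% (grainyhead) and 1.60% (POU) of all promoters. A match describes letters in this window only, and the single Hnf4a probe does not tell its 2 start sites apart.

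Levels are log2 ratios of a probe's processed intensity to the 75th percentile of its array, control spots left out, so 0 is that percentile and each unit is a doubling. The 75th percentiles ranged from 1170.2 to 1720.1 intensity units, 60.9% to 69.1% of gene spots were well above background, and no spot was saturated. Where a probe was spotted repeatedly on an array, the median SD over its spots was 0.0511 to 0.0597 log2 units. This covers spot error only, and each probe of the factors was a single spot. Slide 1 held the 2-week transplant with the E13.5 kidney and slide 2 the other 3 arrays, so slide and group cannot be told apart where arrays of different slides are compared. Cdh16, Lrp2, Umod, Aqp2 and Slc12a3, markers of kidney epithelium, were all well above background in both transplants, the P0 and the 8-week kidney, while Slc12a3 was not at E13.5. The P0 kidney lacked signal of the Y-linked Ddx3y above background (level -8.15, against -1.40 to 0.22 elsewhere), and the 8-week kidney lacked that of Xist (-7.47, against -2.88 to -0.73 elsewhere). Both genes were well above background in the E13.5 kidney and in both transplants. The part of sex in differences between any of the arrays was not tested.

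**Figure D1:**
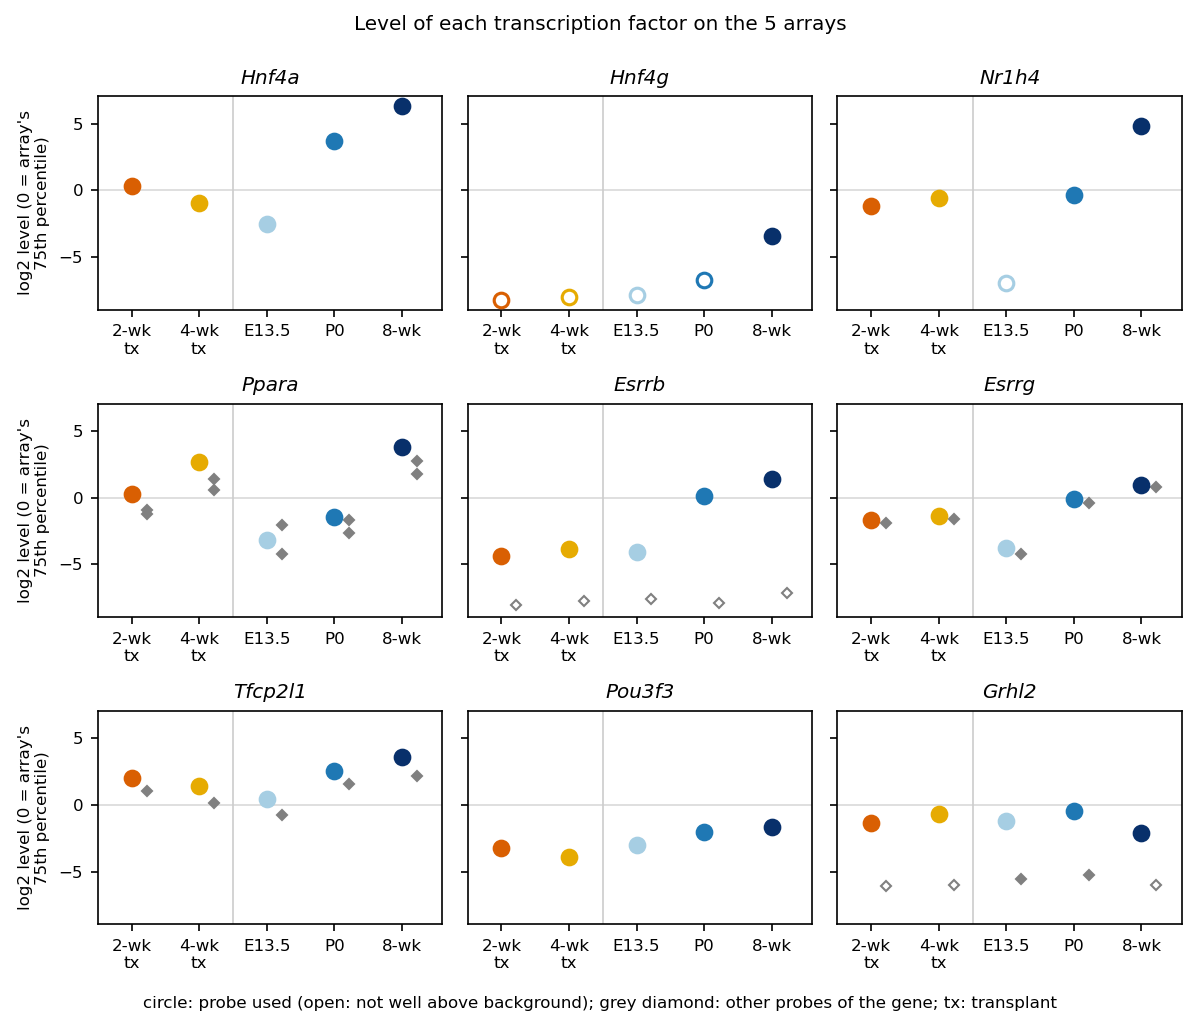
Log2 level of each factor (0 is the array's 75th percentile) on the 5 arrays, 1 panel a gene and the same y axis throughout. Circles are the probe used, open where not well above background, and grey diamonds are other probes of the gene. Hnf4a and Nr1h4 span the widest range of levels, Ppara is the one factor whose transplants both lie above the P0 kidney, and Grhl2 is lowest in the 8-week kidney.

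Most of the factors were higher in the older of 2 kidneys and lower in the 4-week transplant than in the postnatal kidneys. A gene was compared where at least 1 of 2 arrays was well above background. With 1 dim array, that array was set to the lowest level well above background on it (-6.19 to -5.38) or the gene's own level, whichever was higher, which makes the fold a lower bound. Counted over the factors, 7 of 8 compared were at least 2-fold higher in the P0 than in the E13.5 kidney and 0 lower (median log2 difference 2.87), Grhl2 being 1.69-fold higher. Pou3f3 passed at 2.04-fold and missed with quantile normalization (0.93) and with a normexp background correction fitted to negative control spots (0.84). Among all genes 13.9% were higher and 11.9% lower (median -0.12). At least 4-fold higher were 5 of the 8, against 6.24% of all genes, and 0 were 4-fold lower, against 1.83%. In the 8-week against the P0 kidney 7 of 9 were higher and 1 lower (median 1.27), where 23.6% of all genes were higher and 21.0% lower (median 0.07). Past 4-fold were 4 higher and 0 lower, with 8.93% and 9.35% of all genes. In the authors' deposited table, whose values lack the percentile shift, all genes split into 12.4% higher and 27.2% lower, with a median of -0.11, and 4 of the 9 factors were higher. Esrrb, Esrrg and Tfcp2l1 were then at 0.71, 0.58 and 0.40, against 1.27, 1.06 and 1.10, so that the 4 called higher under that scaling were Hnf4a, Hnf4g, Nr1h4 and Ppara, and Grhl2 was still lower. Quantile normalization also put Esrrg (0.95) and Tfcp2l1 (0.73) under 2-fold. Grhl2 goes against the name of the set as factors of tubule maturation, with a log2 difference of -0.90 between the 8-week and the E13.5 kidney, which is within 2-fold.

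Against the E13.5 kidney the 2-week transplant had 5 of 8 factors at least 2-fold higher and 0 lower (median 1.84), where 21.4% of all genes were higher and 20.3% lower (median -0.11). The 5 were Hnf4a, Nr1h4, Ppara, Esrrg and Tfcp2l1, and Esrrb, Pou3f3 and Grhl2 were within 1.26-fold. Tfcp2l1 was under 4-fold, so 4 were past it, and 0 were 4-fold lower, with 11.3% and 5.42% of all genes. With normexp background correction, which estimated the mean background as -992 for the E13.5 kidney and as 20.7 to 27.5 elsewhere, 2 were higher and 2 lower, and all genes split into 9.73% higher and 36.0% lower. That setting turned the sign of Esrrg (-0.57). It also left 3 of 8 higher at P0 against E13.5, with 6.58% of all genes higher and 33.8% lower, and turned Ppara (-0.60) and Pou3f3 (-0.70) there. RNA was made from whole tissue, so fewer tubule cells and less of a factor's RNA in each cell cannot be told apart in any comparison.

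Against the P0 kidney the 4-week transplant, on the same slide, had 1 factor higher and 5 lower of 8 (median -1.20), with 19.2% of all genes higher and 13.9% lower (median -0.02). Ppara was the higher one, Hnf4a, Esrrb, Pou3f3, Esrrg and Tfcp2l1 the lower ones, and Nr1h4 and Grhl2 were within 1.22-fold. At 4-fold 1 was higher (Ppara) and 2 lower (Hnf4a and Esrrb), with 8.66% and 4.36% of all genes. The 2-week transplant, on the other slide, had 1 higher and 4 lower of 8 (median -1.08), with 15.4% of all genes higher and 11.8% lower (median -0.07). At 4-fold these counts were 0 and 2, with 6.85% and 3.38% of all genes. Both comparisons share the P0 array.

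Against the 8-week kidney the 4-week transplant had 8 of 9 factors lower and Grhl2 higher (median -2.33), where 22.3% of all genes were higher and 18.6% lower (median 0.00), or 25.6% and 12.4% in the authors' deposited table. The lower factors ran from 2.17-fold for Ppara to 152-fold for Hnf4a. At 4-fold 7 were lower and 0 higher, with 7.80% and 11.7% of all genes. Between the transplants, on different slides, Ppara was 5.15-fold higher and Hnf4a 2.31-fold lower in the 4-week than in the 2-week transplant, and the other 6 compared were within 1.60-fold. Over all genes 9.10% were higher and 5.68% lower there, or 7.27% and 8.73% in the authors' deposited table, and the median over the factors was 0.40, or 0.11 in that table, which also takes in Hnf4g. Ppara alone was past 4-fold, where 2.44% of all genes were higher and 1.02% lower.

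**Figure D2:**
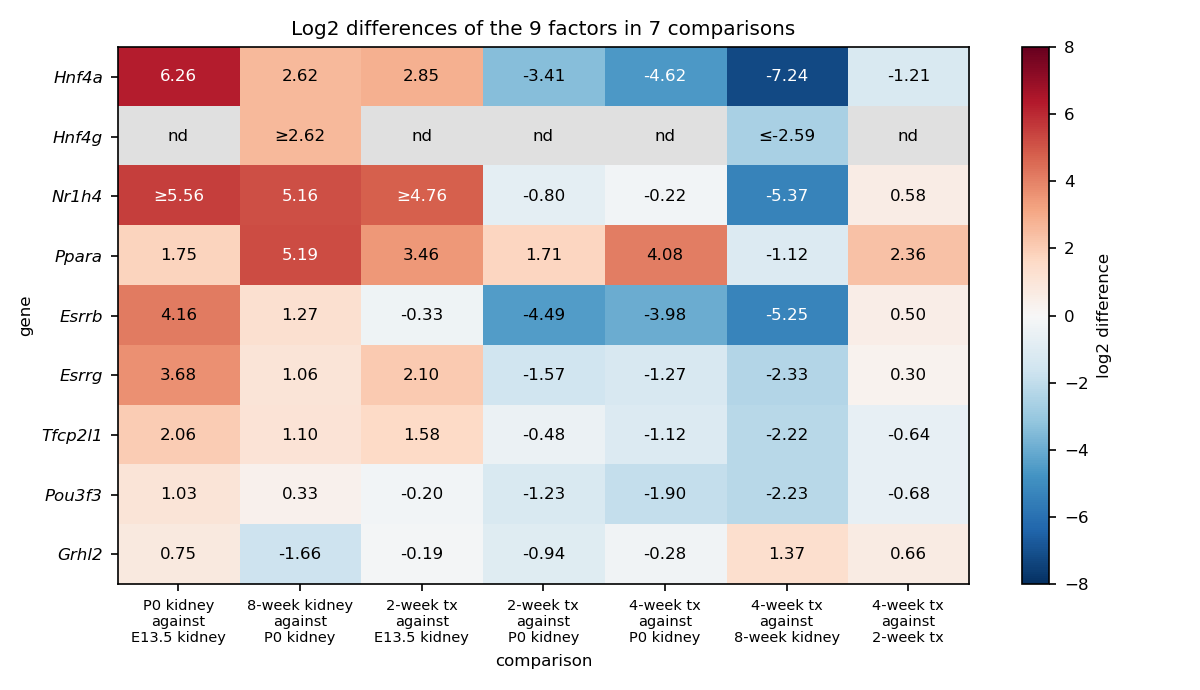
Log2 differences of the 9 factors (rows) in 7 comparisons (columns, the first-named array minus the second). Red is higher and blue lower, signs of inequality mark bounds, and nd marks pairs with neither array well above background. Hnf4a reaches 6.26 for P0 against E13.5 and -7.24 for the 4-week transplant against the 8-week kidney, and Grhl2 has the opposite sign to the other factors in that last comparison.

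Hnf4a was high in the maturing kidney and low in both transplants. Its level was 0.30 in the 2-week and -0.91 in the 4-week transplant, against -2.55, 3.71 and 6.33 in the E13.5, P0 and 8-week kidneys. The transplants thus lay between the E13.5 and the P0 kidney. Within slide 1, Hnf4a was 7.21-fold higher in the 2-week transplant than in the E13.5 kidney. Within slide 2, it was 24.6-fold lower in the 4-week transplant than in the P0 kidney and 152-fold lower than in the 8-week kidney, and the 8-week kidney was 6.17-fold above the P0 kidney. Across slides it was 76.7-fold higher at P0 than at E13.5, and 2.31-fold lower in the 4-week than in the 2-week transplant.

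Hnf4g, the paralog of Hnf4a, was measured on 1 array only. In the 8-week kidney its level was -3.40 (intensity 111), and intensities elsewhere were 5.78 and 5.85 in the 2-week and 4-week transplants and 7.16 and 16.7 in the E13.5 and P0 kidneys, none of them well above background. It was at least 6.04-fold lower in the 4-week transplant than in the 8-week kidney, and at least 6.13-fold higher in the 8-week kidney than at P0. It was also at least 6.91-fold lower in the 2-week transplant than in the 8-week kidney, and at least 5.64-fold higher at 8 weeks than at E13.5. Pairs without the 8-week kidney could not be compared.

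Proximal tubule genes known as targets of Hnf4a were read beside it. All 10 were at least 2-fold lower in the 4-week transplant than in the 8-week kidney (median log2 difference -7.34), and 9 of 10 lower than in the P0 kidney (median -4.05). Slc34a1, the sodium-phosphate cotransporter, was 48.9-fold and Slc22a6, an organic anion transporter, 52.2-fold lower in the 4-week transplant than at P0. Aqp1, the water channel of proximal tubule and thin limb, stood against the rest at 1.14-fold higher. In the 2-week transplant 9 of the 10 were higher than at E13.5 (median 3.89), Fbp1, an enzyme of gluconeogenesis, by 48.3-fold, and the remaining one, the brush border protein Cdhr2, was at 1.13-fold. Hnf4a is also a factor of liver and intestine. Of 6 hepatocyte markers 3 and 1 were well above background in the 2-week and 4-week transplants, against 3, 2 and 3 in the E13.5, P0 and 8-week kidneys, and their summed level was 128 and 95.6 percent of the 75th percentile, against 38.9, 1290 and 210. Afp made up most of the P0 sum (level 3.55), where Alb and Fgb were not well above background. Serpina1a made up most of it in the 2-week and 4-week transplants (0.11 and -0.13). Apoa1 and Cps1 were not well above background on any array, 6 enterocyte markers summed to 7.4 to 22.3 percent over the 5 arrays, and the part of such cells in the Hnf4a level was not tested.

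Nr1h4, the bile acid receptor, was not well above background in the E13.5 kidney and was highest in the 8-week kidney. Its level was -1.13 in the 2-week and -0.55 in the 4-week transplant, against -6.97, -0.33 and 4.82 in the E13.5, P0 and 8-week kidneys. Both transplants were therefore close to the P0 kidney, at 1.74-fold (2-week) and 1.16-fold (4-week) lower. The 4-week transplant was 41.5-fold lower than the 8-week kidney, and the 8-week kidney 35.7-fold higher than the P0 kidney. Against E13.5, Nr1h4 was at least 27.1-fold higher in the 2-week transplant and at least 47.2-fold higher in the P0 kidney.

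Genes listed as targets were mostly lower in the 4-week transplant than at P0, where the receptor itself was within 2-fold. The list does not separate genes the receptor raises from those it lowers. The bile acid and steroid transporter subunits Slc51a and Slc51b were 29.6-fold and 27.8-fold lower in the 4-week transplant than in the P0 kidney, and Slc10a2, the bile acid uptake transporter, at least 20.4-fold lower. Nr0b2 (SHP), a repressor and textbook target of the receptor, was at least 3.16-fold higher, the other direction from Slc51a and Slc51b. It was not well above background at P0, and no listed gene was above -3.94 in the 4-week transplant, so its signal there was low. In all, of 7 listed, 1 was at least 2-fold higher and 4 were lower of 6 compared (median -2.78), and against the 8-week kidney 4 of 5 were lower (median -7.01). The export pump Abcb11 was not well above background on any array.

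Ppara was the one factor with higher levels in both transplants than in the P0 kidney. Its level was 0.29 in the 2-week and 2.65 in the 4-week transplant, against -3.17, -1.42 and 3.77 in the E13.5, P0 and 8-week kidneys. From low to high the order was E13.5 and P0 kidney, then the transplants at 2 and 4 weeks, then the 8-week kidney. Its 2 other probes gave the 8-week kidney first and the 4-week transplant second as well. Within a slide Ppara was 11.0-fold higher in the 2-week transplant than at E13.5, 16.9-fold higher in the 4-week transplant than at P0, 2.17-fold lower in the 4-week transplant than in the 8-week kidney, and 36.6-fold higher in the 8-week kidney than at P0. Log2 differences over the 3 probes ran from 1.08 to 3.46 for the 2-week transplant against E13.5 and from 2.24 to 4.08 for the 4-week transplant against P0. The lower call against the 8-week kidney was lost with quantile normalization (-0.71) and in the authors' deposited table (-0.83).

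Ppara is also expressed in brown fat. Markers of fat were higher in both transplants than in any kidney, and those of adrenal cortex in the 4-week transplant. The summed level of 7 adipocyte markers, in percent of the array's 75th percentile, was 20074 in the 2-week and 48941 in the 4-week transplant, against 171, 3281 and 421 in the E13.5, P0 and 8-week kidneys. Of these markers 6 were well above background in both transplants, against 3, 4 and 1 in those kidneys, and Elovl3 was above it on no array. In each of those kidneys a single marker made up most of the sum, at levels of 0.67, 5.03 and 2.05. At 8 weeks it was Fabp4, the only one well above background. Ucp1, the uncoupling protein of brown fat, was at 4.20 and 4.73 in the 2-week and 4-week transplants and not well above background in any kidney. Adrenal cortex markers summed to 30.3 in the 2-week and 13528 in the 4-week transplant, against 33.9 to 55.1 in the kidneys, and 7 of 7 were well above background in the 4-week transplant, against 2 to 4 on the other arrays. The part of either cell type in the Ppara levels was not tested.

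**Figure D3:**
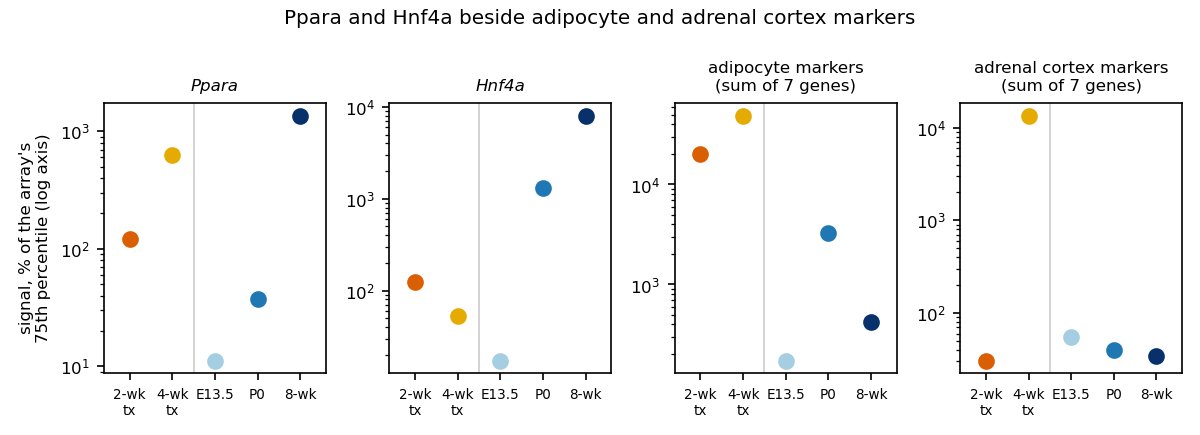
Ppara, Hnf4a and the summed adipocyte and adrenal cortex markers (7 genes each) on the 5 arrays, as signal in percent of the array's 75th percentile. The y axes are logarithmic and differ between panels. Ppara and the adipocyte markers are higher in both transplants than in the P0 kidney, Hnf4a is lower, and the adrenal cortex markers stand out in the 4-week transplant at 13528.

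Known target genes of Ppara were mostly higher in the 4-week transplant than at P0 and mostly lower than at 8 weeks. Of 12 compared, 8 were at least 2-fold higher and 1 lower than in the P0 kidney (median 1.42). Pdk4, a kinase that restrains glucose oxidation, was 42.4-fold and Angptl4, an inhibitor of lipoprotein lipase, 39.1-fold higher, and Cyp4a10, a fatty acid hydroxylase of the proximal tubule, was 4.69-fold lower. Against the 8-week kidney 11 of 13 were lower and 1 higher (median -2.77), with Cyp4a10 335-fold lower, Ehhadh, a peroxisomal enzyme of beta-oxidation, 59.5-fold lower and Pdk4 11.0-fold higher. All 13 were higher in the 8-week kidney than at P0 (median 4.02), Cyp4a14 by at least 317-fold. In the 2-week transplant 10 of 12 compared were higher than at E13.5 (median 1.77). Pdk4 and Angptl4 are also expressed in fat, whose markers are given above.

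Esrrb and Esrrg differed from each other in the transplants. Esrrb was at -4.36 in the 2-week and -3.85 in the 4-week transplant, against -4.03, 0.13 and 1.40 in the E13.5, P0 and 8-week kidneys. It was thus as low in both transplants as at E13.5, 1.26-fold lower in the 2-week transplant than there, 15.8-fold lower in the 4-week transplant than at P0 and 38.1-fold lower than at 8 weeks. Esrrb is also a known regulator of pluripotent stem cells. Of 5 markers of these cells Nanog, Dppa5a and Tdgf1 were well above background on each array and Pou5f1 and Zfp42 on none. The 5 had a summed level of 110 and 319 percent in the 2-week and 4-week transplants, against 131, 80.7 and 118 percent in the E13.5, P0 and 8-week kidneys. Tdgf1 made up most of it in the 4-week transplant, where its level was 1.41, and lay between -1.36 and -0.09 elsewhere. The part of such cells in the Esrrb level was not tested. The second Esrrb probe was not well above background on any array.

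Esrrg lay between the E13.5 and P0 kidneys in both transplants. Its level was -1.69 in the 2-week and -1.39 in the 4-week transplant, against -3.80, -0.12 and 0.94 in the E13.5, P0 and 8-week kidneys. It was 4.30-fold higher in the 2-week transplant than at E13.5, 2.42-fold lower in the 4-week transplant than at P0 and 5.04-fold lower than at 8 weeks. Its second probe gave log2 differences of 2.35, -1.15 and -2.37 in these comparisons. Esrrg is known from brown fat as well, and the adipocyte markers above were highest in the transplants, where the part of fat in its level was not tested. Among 11 coactivators and mitochondrial targets of these receptors, 4 were at least 2-fold higher and 1 lower in the 4-week transplant than at P0 (median 0.74). Perm1, a coregulator of muscle and heart mitochondria, was 7.50-fold higher and the coactivator Ppargc1a 2.54-fold lower, and against the 8-week kidney Ppargc1a was 3.76-fold lower (list median -0.55).

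Pou3f3 was lower in both transplants than in the P0 and 8-week kidneys. Its level was -3.22 in the 2-week and -3.89 in the 4-week transplant, against -3.02, -1.99 and -1.66 in the E13.5, P0 and 8-week kidneys. It was 1.15-fold lower in the 2-week transplant than at E13.5, 3.74-fold lower in the 4-week transplant than at P0, and 4.69-fold lower than at 8 weeks. Between the 8-week and the P0 kidney the log2 difference was 0.33, or -0.23 in the authors' deposited table, which carries no percentile shift. Pou3f3 is also a factor of the brain, and 5 neural markers summed to 886 and 959 percent of the 75th percentile in the 2-week and 4-week transplants, against 417, 310 and 254 percent in the E13.5, P0 and 8-week kidneys. Of these markers 5 were well above background in each transplant, against 4, 4 and 2 in the kidneys. Snap25 made up most of the sum in the kidneys and in the 4-week transplant, where its level was 3.06. In the 2-week transplant Snap25 and Gfap were each at 2.05, and Gfap was at -2.18 in the 4-week transplant. The part of neural cells in the Pou3f3 level was not tested.

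Thick ascending limb genes known to depend on Pou3f3 were mostly higher in the 2-week transplant than at E13.5 and mostly lower in the 4-week transplant than in the postnatal kidneys. In the 2-week transplant 9 of 10 were at least 2-fold higher than at E13.5 (median 3.93), Kcnj1, the potassium channel ROMK, by at least 178-fold. Against the P0 kidney 8 of 10 were lower and 1 higher in the 4-week transplant (median -2.16), with Ptger3, a prostaglandin receptor, 3.49-fold higher. Of the 10, 9 were lower in the 4-week transplant than in the 8-week kidney (median -3.89), and Ptger3 was 1.36-fold lower.

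Tfcp2l1 had its lowest level at E13.5, 0.94 log2 units under the 4-week transplant. It was at 2.06 in the 2-week and 1.42 in the 4-week transplant, against 0.48, 2.54 and 3.64 in the E13.5, P0 and 8-week kidneys. The 2-week transplant was 2.99-fold higher than E13.5 and 1.39-fold lower than P0, and the 4-week transplant 2.17-fold lower than P0 and 4.65-fold lower than the 8-week kidney. A second probe gave log2 differences of 1.77, -0.51, -1.41 and -2.06 in the same order. The 2-week transplant had 11 of 12 collecting duct genes higher and 1 lower than at E13.5 (median 4.16), Aqp6, a water channel of intercalated cells, by at least 104-fold, while Slc4a1, the anion exchanger of intercalated cells and red cells, was 3.56-fold lower. In the 4-week transplant 8 were lower than at P0 (median -1.55), Aqp2, the vasopressin-regulated water channel, by 56.2-fold, and 1, the anion exchanger Slc26a4, was 2.31-fold higher.

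Grhl2 went against the other factors in comparisons with the 8-week kidney, where its level was lowest, 0.72 log2 units under the 2-week transplant. At P0 it was 1.69-fold higher than at E13.5, the same direction as the other factors compared. Its level was -1.34 in the 2-week and -0.69 in the 4-week transplant, against -1.16, -0.40 and -2.06 in the E13.5, P0 and 8-week kidneys. The whole range was 1.66 log2 units, the narrowest of the 9. It was 3.15-fold lower in the 8-week kidney than at P0 and 2.59-fold higher in the 4-week transplant than in the 8-week kidney, a call that ended with the mean over both probes (0.68). The second Grhl2 probe was well above background at E13.5 and P0 only. Of 11 epithelial genes linked to Grhl2, 1 was higher and 4 lower in the 8-week kidney than at P0 (median -0.20). The claudins Cldn4 and Cldn7 were 6.23-fold and 4.69-fold lower there, and Prom2, a prominin of epithelial protrusions, 3.04-fold higher. Squamous and urothelial markers summed to 377 and 3432 in the 2-week and 4-week transplants, against 222, 641 and 447 in the E13.5, P0 and 8-week kidneys, with 5, 6, 3, 6 and 5 of 8 well above background on these arrays. Krt6a and Dsg3 were not well above background on any array, and the part of such cells in the Grhl2 level was not tested.

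The ordering of the arrays can be read against spot error only. The smallest step between neighbouring arrays among values well above background was 0.18 log2 units, for Esrrb between the 4-week transplant and E13.5. It exceeds the replicate-spot SD, but variation between animals and labellings was not measured. Steps under 1 log2 unit within the transplants and E13.5 for Esrrb, Pou3f3 and Grhl2 therefore give no order among those arrays.

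Close relatives and partners of the factors showed which family members were present. Of 16 listed, 13 were compared, and Nr1h5, Pou3f2 and Pou3f4 were not well above background on any array. Pparg, the receptor of fat cell formation, was at 1.80 and 3.55 in the 2-week and 4-week transplants, against -2.05, -1.07 and -1.35 in the E13.5, P0 and 8-week kidneys, and was 24.6-fold higher in the 4-week transplant than at P0. Ppard, the third of that family, was within 1.22-fold in that comparison. Nr1h3, the oxysterol receptor LXR alpha, resembled Ppara with levels of 0.73 and 1.61 in the 2-week and 4-week transplants, against -3.28, -1.46 and 3.07 in those kidneys, while its relative Nr1h2 lay between 2.39 and 3.62 on all 5 arrays.

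Esrra, the third estrogen-related receptor, was at 2.61 and 3.21 in the 2-week and 4-week transplants, against 1.83, 2.63 and 5.06 in the E13.5, P0 and 8-week kidneys, within 1.49-fold of the P0 kidney in both transplants. Grhl1 and Grhl3 were 2.05-fold and 5.21-fold higher in the 4-week transplant than at P0, and Grhl3, which acts in squamous epithelium and urothelium, was 19.9-fold higher than in the 8-week kidney. The receptor partners Rxra, Rxrb and Rxrg were within 2-fold in all 7 comparisons. Pou3f1, a relative of Pou3f3 known from Schwann cells, was 4.93-fold lower in the 2-week transplant than at E13.5. Tfcp2 and Ubp1, relatives of Tfcp2l1, were 2.15-fold and 1.27-fold lower in the 4-week transplant than in the 8-week kidney.

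Other tubule transcription factors were mostly lower in the transplants than at P0. Of 17 listed, 0 were at least 2-fold higher and 11 lower in the 2-week transplant than in the P0 kidney (median -1.60), and 0 higher and 12 lower in the 4-week transplant than there (median -1.67). In the 4-week transplant Lhx1, a factor of the early nephron, was 28.5-fold lower, and Foxi1, which specifies intercalated cells, was 1.44-fold higher. Against the 8-week kidney 5 were higher and 9 lower there (median -1.86), with Sox9, a factor of early and injured tubules, at least 10.8-fold higher. The 2-week transplant had 5 higher and 4 lower than at E13.5 (median 0.35), Foxi1 12.6-fold higher and Lhx1 34.6-fold lower.

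**Figure D4:**
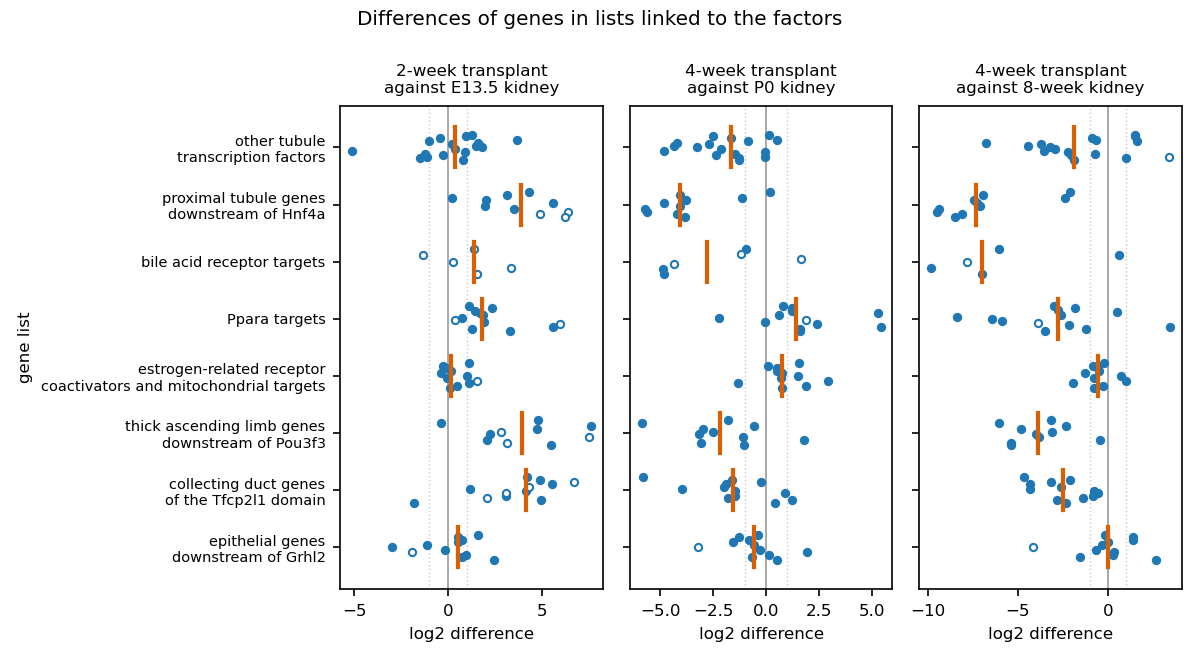
Log2 differences of single genes (points, open where a bound) in 8 lists linked to the factors, for 3 within-slide comparisons, with the list median as an orange bar and dotted lines at 2-fold. The x axes differ between panels. Proximal tubule genes have a median of -4.05 in the 4-week transplant against P0, where Ppara targets have a median of 1.42.

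The factors' profiles over the 5 arrays were compared after centring each on its own mean, by the root mean square (RMS) difference in log2 units, as a description over 5 arrays. For Hnf4g and Nr1h4 this includes values not well above background. Esrrg and Tfcp2l1 were the most alike (0.66), followed by Tfcp2l1 and Pou3f3 (0.71), and Nr1h4 and Grhl2 the least alike (4.02). The paralogs lay between these ends, at 1.85 for Hnf4a and Hnf4g and 1.35 for Esrrb and Esrrg. Profiles were not scaled by their range, so factors of narrow range can come out close, as Pou3f3 and Grhl2 did (1.16). Among 12873 genes well above background on all 5 arrays, those closest to Hnf4a were Amn (0.19), Ass1 (0.20) and Lrp2 (0.34), of which Ass1 and Lrp2 are also on the list of its targets. Closest to Ppara were Fmo5 (0.27), Me1 (0.41) and Ephx2 (0.43). For Esrrb they were Cpb2 (0.11), Acot3 (0.44) and Misp3 (0.50), and for Esrrg Eps8l2 (0.21) and Gpc4 (0.22). Tfcp2l1 was closest to Hebp1 (0.10), Steap2 (0.12) and Anpep (0.13), Pou3f3 to Osbpl10 (0.11), Scel (0.14) and Sfxn2 (0.16), and Grhl2 to Fhdc1 (0.15), Plod2 (0.15) and Dgke (0.21). For Nr1h4, among 464 genes well above background on the same 4 arrays only, they were Sult1c2 (0.69), Tmigd1 (0.77) and Upb1 (0.79).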

How the data were processed

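RNA of 5 samples was read on 1 one-colour array each, and samples were grouped by their titles. The deposited intensity of a spot is the processed signal of Agilent Feature Extraction (version 10.7.3.1 in the submitters' processing notes), from which background and spatial trend were removed per the file headers. The authors' deposited gene table holds log2 values: 99.6% of them were within 0.01 of the unshifted log2 intensity, averaged over probes and centred per row over 30224 rows, against 18.2% after a 75th percentile shift. Column medians were 0.00 (2-week transplant) and -0.08 (4-week transplant), against 0.05 (E13.5), 0.00 (P0) and 0.00 (8-week kidney).

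Here log2 intensities were shifted by each array's 75th percentile, 447 of 43020 gene spots were dropped because any array marked them as outliers, and a gene was read from its probe of highest mean level. Names of 39414 probes came from gene identifiers and RefSeq (GRCm38.p6) for 31781, from the authors' symbols for 2026 and from accessions for 19, and 5588 stayed unnamed. A difference of 2-fold was counted, with bounds where 1 array was dim. The members and gene lists were chosen with earlier results of these data known. Of the lists, all 173 genes matched. The text names every member and relative, the list genes furthest apart or against their list, and the 3 nearest profiles. Some genes that fall under this rule are not reported here. Alternatives were normexp (offset 50, on the median signal) with and without 153 negative control spots, quantile normalization (limma 3.58.1 in R 4.3.3), the authors' table, the mean over probes, no background filter and a 4-fold threshold. Probe choice and the calling of differences were tested on simulated data, with large changes in bright genes and spot noise only. This did not test the percentile shift, the background flags, dim genes or variation between animals. With 1 array per group no test was possible, and a slide term could not be fitted.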

Additional observations from a re-analysis of the deposited data

How the results depend on the processing

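No paired analysis was possible because each group has 1 array. Of 58 differences of single factors, a call at 2-fold was gained or lost in 10 with normexp, 5 with quantile normalization, 4 in the authors' table, 2 with negative-control normexp, 2 with the mean over probes and 0 without the background filter, and 0 turned to the other direction. Median differences over the factors are given for the 2-week transplant against E13.5 and P0, the 4-week transplant against the 2-week transplant, the 8-week kidney and P0, the 8-week kidney against P0, and P0 against E13.5. The values in that order were 1.84, -1.08, 0.40, -2.33, -1.20, 1.27 and 2.87. They were 1.72, -1.23, 0.11, -1.99, -1.41, 0.71 and 2.22 in the authors' table. That table has no background filter and takes in Hnf4g throughout, also in the 5 comparisons that lack it in the main setting. In those 5 the medians therefore differ by the set of factors as well as by scaling. Normexp gave -0.20, -0.93, 0.26, -2.17, -1.12, 1.25 and 0.88, so the first reversed. It also reversed Ppara (-0.60) and Pou3f3 (-0.70) at P0 against E13.5 and Esrrg (-0.57) in the 2-week transplant against E13.5, and the background it fitted on the E13.5 array alone was negative. Fitted with negative controls it gave 1.60, -0.97, 0.29, -2.21, -1.14, 1.27 and 2.56. Quantile normalization gave 1.83, -1.22, 0.35, -2.63, -1.25, 1.13 and 2.83. Without the background filter, which adds Hnf4g to the 5 comparisons that lack it, they were 1.58, -1.23, 0.30, -2.33, -1.27, 1.27 and 2.06. The mean over probes gave 1.95, -1.04, 0.33, -2.35, -1.24, 1.14 and 2.05. Apart from what the construction shows, the cause was not tested.

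At P0 against E13.5, Pou3f3 (2.04-fold) passed 2-fold by little and missed it with negative-control normexp (0.84) and quantile normalization (0.93). Counts at 4-fold stand beside those at 2-fold in the report: the count of higher factors changed from 7 to 4 for the 8-week kidney against P0, and that of lower ones from 5 to 2 for the 4-week and 4 to 2 for the 2-week transplant against P0. Signal over background limits Hnf4g on 4 arrays and Nr1h4 at E13.5 to bounds.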
